A study of Mus musculus with 22 samples.

Results

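The cytosolic ribosomal proteins are the proteins of the ribosome that translates nuclear-encoded mRNAs, and they were described here across leg muscle and the eye-moving extraocular muscles (EOM) of mice of the strains SJL and Balb. Members were all probe sets whose single annotated gene symbol starts with Rpl, Rps or Rplp followed by a number, without the Rps6k kinases, which are not part of the ribosome. The rule gave 46 probe sets of 32 genes, among 12488 probe sets and 8251 genes named by a single symbol on the Affymetrix arrays. They comprised 25 probe sets of 16 small subunit genes, 20 probe sets of 15 large subunit genes and 1 probe set of Rplp0, at the base of the stalk. Rps4l, counted with the small subunit by its symbol, is annotated as a transcribed pseudogene, and the other member genes as protein coding. A further 38 probe sets carried a ribosomal protein symbol among several symbols and were not members.

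The 22 arrays fell into 8 groups: Balb leg, SJL leg, Balb EOM and SJL EOM, each at 10 months and at 12 months (1 year in the labels) of age. There were 3 arrays a group, except 2 (replicates 1 and 2) for Balb EOM at 12 months and 2 (replicates 1 and 3) for SJL EOM at 12 months. The SJL strain is known to carry a naturally occurring mutation of dysferlin, a membrane repair protein of muscle, and to develop a muscular dystrophy late in life. Balb mice served as the other strain and differ from SJL at many further loci, so no difference between them can be assigned to dysferlin alone. The labels give no treatment, and nothing in them says that arrays came from separate animals, so the p-values measure the spread between these samples, which may be technical.

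Each ribosome is built from a small subunit, which holds and decodes the mRNA, and a large subunit, which forms the peptide bond and carries the stalk that recruits translation factors. Their proteins are made in matched amounts by nearly all cells, which is why several of them (Rplp0, Rpl13a) are in use as reference genes. The mRNAs of vertebrate ribosomal proteins usually begin with a C followed by a run of pyrimidines, the 5′ terminal oligopyrimidine tract, through which growth signals act on their translation. In muscle the ribosome supply is known to rise with growth, while the sarcomere genes set against the set here encode the contractile filaments and differ between muscles and fibre types.

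Pyrimidine runs stand near the start of several member genes, and 6 windows are printed, all from member genes that carry the stretch CTTTCC. They come from RefSeq (GRCm38.p6, the reference strain C57BL/6J), and the capitals mark CTTTCC, a stretch of pyrimidines chosen with the member sequences in view, so that its frequency is a description. Position +1 is the first transcribed base of the RefSeq entry and -1 the base before it. The windows are chr3:90213630-90213659 (minus strand) for Rps27, chr17:27635223-27635252 (minus strand) for Rps10 and chr17:28328574-28328603 (plus strand) for Rpl10a. They are chr7:45128719-45128748 (minus strand) for Rpl13a, chr4:152325682-152325711 (plus strand) for Rpl22 and chr5:121204521-121204550 (plus strand) for Rpl6.
Rps27: ccgctttcgctcCTTTCCggcggtgacgac
Rps10: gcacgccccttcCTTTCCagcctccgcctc
Rpl10a: gcgctctgccttCTTTCCggtttccgcggc
Rpl13a: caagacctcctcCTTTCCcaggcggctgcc
Rpl22: tctgactcctccCTTTCCcgacagccgact
Rpl6: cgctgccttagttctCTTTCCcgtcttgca
The first base of the motif lay at +2 in Rps27, +5 in Rps10, +10 in Rpl13a, +22 in Rpl10a, +36 in Rpl6 and -32 in Rpl22. Within 50 bases either side of the start, CTTTCC on the sense strand was present in 11 of the 25 member genes with a RefSeq promoter entry (44.0%), against 356 of 6573 genes of the array (5.4%). On either strand it was present in 12 of 25 member genes (48.0%) and in 10.2% of the array's genes. Among sarcomere genes the sense-strand share was 3 of 42 (7.1%), among mitochondrial ribosomal proteins 3 of 54 (5.6%) and among translation factors 2 of 36 (5.6%). Of the 11 member genes, Rpl19 and Rps19 also have results below and are not printed. Rpl37a, Rplp0, Rpl41, Rps24, Rps18 and Rps4x, on which results below turn, had an entry without a sense-strand match. A match says only that these letters are in the window. Rpl32, Rpl7, Rps20, Rps14, Rps4l, Rpl8 and Rps29 were not matched to an entry.

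A common scaling was visible in the trimmed mean intensity, which was 1500.8 to 1501.1 on every array, and the median intensity of an array was 566 to 651 at 10 months and 426 to 562 at 12 months. Ckm, the muscle creatine kinase, read 9103 to 63428 over all arrays, and the epidermal keratin Krt14 19.2 to 309. Acta1, the actin of skeletal muscle filaments, read 617 to 78675 (median 25017), and its lowest value, on a leg array at 10 months, was near the median intensity of an array. The 4 replicate 1 arrays at 10 months stood apart from the other 18 in the Actb control. Their ratio of 3′ to 5′ Actb control probes, which rises as RNA is degraded or copied incompletely, was 5.05 in Balb leg, 9.80 in Balb EOM, 28.7 in SJL leg and 53.7 in SJL EOM, against 0.847 to 1.93 elsewhere. By the same ratio of the Gapdh control probes they read 2.17, 18.3, 19.9 and 14.1 in that order, and replicates 2 and 3 of SJL EOM at 10 months read 6.71 and 4.66, above the 0.0534 to 1.54 of the 16 remaining arrays. Those replicates are the only 10-month SJL EOM arrays among the 18, and their part in the 18-array results for SJL EOM was not tested. The bright ribosomal protein probe sets were lower on these 4 arrays, so results that rest on them are given for all 22 arrays and for the 18 others.

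Ribosomal protein probe sets fell into a bright and a dim class with a gap between them. Of the 46, 19 (of 17 genes) had a mean intensity over all arrays of 8051 to 45631, at or above the 94.7th percentile of the array, and the other 27 read 56.0 to 2560, at most the 81.9th percentile. A split at 7000, set after the gap was seen, therefore held 41.3% of the members above it, against 6.16% of all 12422 probe sets that were not controls and 42 of 71 sarcomere probe sets. Intensity also depends on the probes, so the order of probe sets is no order of mRNA amounts. The brightest were 45631 for Rps24 97696_r_at (a small subunit protein mutated in Diamond-Blackfan anaemia), 35667 for Rplp0, 34134 for Rps28 98085_f_at, 32614 for Rps4x 100780_at (the X-linked Rps4) and 31403 for Rpl7 97695_s_at. The dimmest were Rpl38 99626_i_at at 56.0, Rps15 at 68.3, Rps4x 162229_at at 90.9, Rps27l at 94.7 and Rpl7 97697_at at 97.5.

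Bright and dim readings occurred for the same genes. Of the 10 genes with several probe sets, 5 had both a bright and a dim one, 12 genes in all had bright probe sets only, and 15 had dim ones only. Rps24 read 45631 with 97696_r_at and 398 with 93121_at. Rpl19, a large subunit protein, read 25372 with 97483_at and 532 with 161961_at. Rps4x read 32614 with 100780_at and 90.9 to 606 with its 4 other probe sets. Whether a dim reading comes from the probes or from little mRNA was not tested. Of the paralogs, Rps27 read 2560 and Rps27l 94.7, while Rpl39 read 203 and Rpl39l, a copy best known from testis, 219. Rps24 97696_r_at and Rpl7 97695_s_at were designed from the same sequence record, as were Rps28 98085_f_at and 98086_r_at, so each pair may share transcripts. After the dimmest 30% of the array was left out, 35 members of 24 genes were tested, 19 bright and 16 dim. The 11 not tested were the probe sets of Rps14, Rps15, Rps20, Rps27l, Rpl35a, Rpl39 and Rpl39l, both of Rpl38, Rpl7 97697_at and Rps4x 162229_at.

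**Figure D1:**
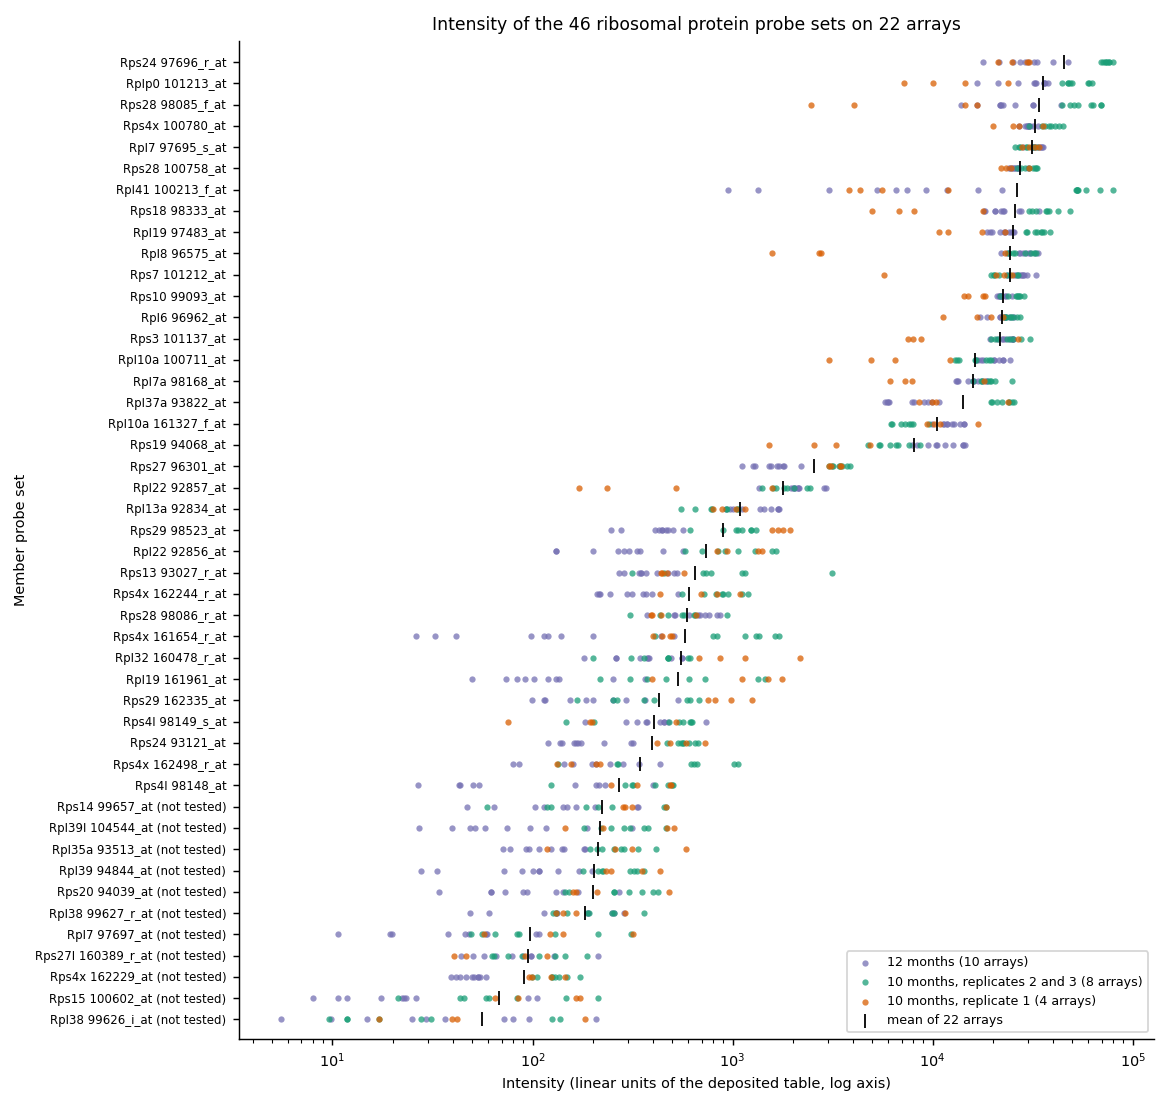
Intensity of each of the 46 ribosomal protein probe sets (rows, ordered by mean) on each of the 22 arrays (points, log axis), colored by age and by whether the array is a 10-month replicate 1 array. 19 probe sets have means of 8051 or more and 27 of 2560 or less, and replicate 1 points lie to the left for many of the bright ones.

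Bright members varied less within groups once the 4 replicate 1 arrays were set aside, as did other bright probe sets. Their median SD between arrays of a group fell from 0.56 on the log2 scale over 22 arrays to 0.13 over 18, against 0.75 and 0.26 for sarcomere probe sets, 0.43 and 0.15 for other probe sets brighter than 7000, 0.68 and 0.48 for dim members and 0.51 and 0.29 for all probe sets tested. The SD of the 8 group means had a median of 0.31 for bright members over 22 arrays, 0.71 for dim members, 0.87 for sarcomere probe sets and 0.38 for other probe sets brighter than 7000. Over 18 arrays these values were 0.26, 0.74, 0.89 and 0.39. Over 22 arrays the most even member tested was Rps10, a small subunit protein, whose group means had an SD of 0.09, and the least even Rps4x 161654_r_at, with an SD of 1.51. Over 18 arrays Rps10 was at 0.14, beside 0.13 for Rpl6, Rpl7 97695_s_at and Rps28 100758_at, and the least even were Rpl41 at 1.85 and Rps4x 161654_r_at at 1.72. Rps10 read 18355, 28768 and 26595 in Balb leg at 10 months (replicates 1, 2 and 3), then 20933, 21596 and 22085 at 12 months, and in SJL leg 15019, 21818 and 23853, then 21466, 23246 and 22087. In Balb EOM it read 14372, 27137 and 26328, then 24939 and 22251, and in SJL EOM 17926, 27446 and 26079, then 21995 and 22882. Replicate 1 was the lowest array of each 10-month group, and the 12-month arrays of all 4 strain and muscle pairs lay between replicate 1 and the highest 10-month array.

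The strain comparison asks whether muscle of the dysferlin-mutant strain differed in its ribosomal proteins from Balb muscle, averaged over both ages. No member passed the test in either muscle. In leg, 0 of 35 were called by limma with Benjamini-Hochberg adjustment over 8695 probe sets, where 1.41% of all tested were called, and 1 member had an unadjusted p below 0.05. The median difference, SJL minus Balb, was -0.06 for members and -0.02 for all tested. In EOM, 0 of 35 were called against 0.932% of all, 3 had an unadjusted p below 0.05, and the medians were -0.05 and -0.04. The strain difference in leg minus that in EOM was called for 0 of 35 members against 0.0920% of all, with 2 at an unadjusted p below 0.05.

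The largest strain differences came mostly from dim probe sets, and none passed. In leg, the highest log2 differences were 0.98 ± 0.51 (SE here and throughout) for Rpl19 161961_at, 0.57 for Rpl41 and 0.50 for Rps13. The lowest were -0.60 for Rps4l 98149_s_at (a copy of Rps4x annotated as a transcribed pseudogene), -0.45 for Rpl8 and -0.35 for Rps29 162335_at. The lowest in EOM were -1.44 ± 0.46 (adjusted p = 0.24) for Rps4l 98148_at, -1.00 for Rps4x 161654_r_at and -0.80 for Rpl22 92856_at. The highest were 0.56 for Rpl22 92857_at, 0.36 for Rps13 and 0.35 for Rpl13a. Rpl22, a large subunit protein that is dispensable for most translation, thus had its 2 probe sets at both ends of the order. The difference between the muscles was highest for Rps4l 98148_at at 1.49 ± 0.62 (adjusted p = 0.954), then Rps4x 161654_r_at at 1.22 and Rpl19 161961_at at 0.76, and lowest for Rpl22 92857_at, Rps4l 98149_s_at and Rpl8 at -0.75, -0.72 and -0.28.

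Most bright members were close in the strains. Over 22 arrays their median absolute log2 difference was 0.115 in leg and 0.117 in EOM, with ranges of -0.454 to 0.569 and -0.585 to 0.200. The members given next were chosen after their values had been seen. Over the 18 arrays Rplp0 differed by 0.09 ± 0.16 in leg and 0.04 ± 0.18 in EOM, Rpl7 97695_s_at by -0.12 ± 0.08 and 0.14 ± 0.09, and Rpl6, a large subunit protein, by 0.07 ± 0.09 and 0.11 ± 0.10. These errors are smaller than with 22 arrays, and still no member was called over 18 arrays: 0 of 35 in leg (8.18% of all), 0 in EOM (8.26%) and 0 for the difference between muscles (1.79%), with 4, 5 and 2 at an unadjusted p below 0.05. Macrophage markers, which were counted as a sign of other cells, summed to 26665 to 54354 on SJL leg arrays and 12548 to 26213 on Balb leg arrays. On EOM arrays they summed to 21003 to 35279 in SJL and 23877 to 31289 in Balb. Their part in the member values was not tested. In bulk tissue, fewer cells of a type and less RNA per cell cannot be told apart.

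Between the muscles, ribosomal proteins lay near each other while sarcomere genes separated. In Balb, 0 of 35 members were called for EOM minus leg, where 13.6% of all tested were called (8.72% higher and 4.86% lower), and in SJL 0 of 35 against 9.56% (6.14% and 3.42%), with 3 and 1 at an unadjusted p below 0.05. The median member difference was 0.04 in Balb (quartiles -0.05 and 0.38) and 0.01 in SJL (-0.24 and 0.12), beside 0.11 and 0.04 for all tested. Of 63 sarcomere and muscle function probe sets tested, 10 rose and 14 fell in Balb EOM against leg, and 7 rose and 9 fell in SJL, with quartiles of -0.98 and 0.93 in Balb and -0.48 and 0.85 in SJL. The embryonic myosin Myh3, which EOM is known to keep into adult life, was higher in EOM by 5.37 ± 0.27 in Balb and 4.59 ± 0.27 in SJL (limma adjusted p = 1.09e-09 and 7.79e-09). Myom2, which cross-links myosin in the M-band, differed by -5.10 ± 0.30 and -5.03 ± 0.30, and the fast-fibre actinin Actn3 by -2.31 ± 0.17 and -2.58 ± 0.17. No test of one list against the other was made.

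**Figure D2:**
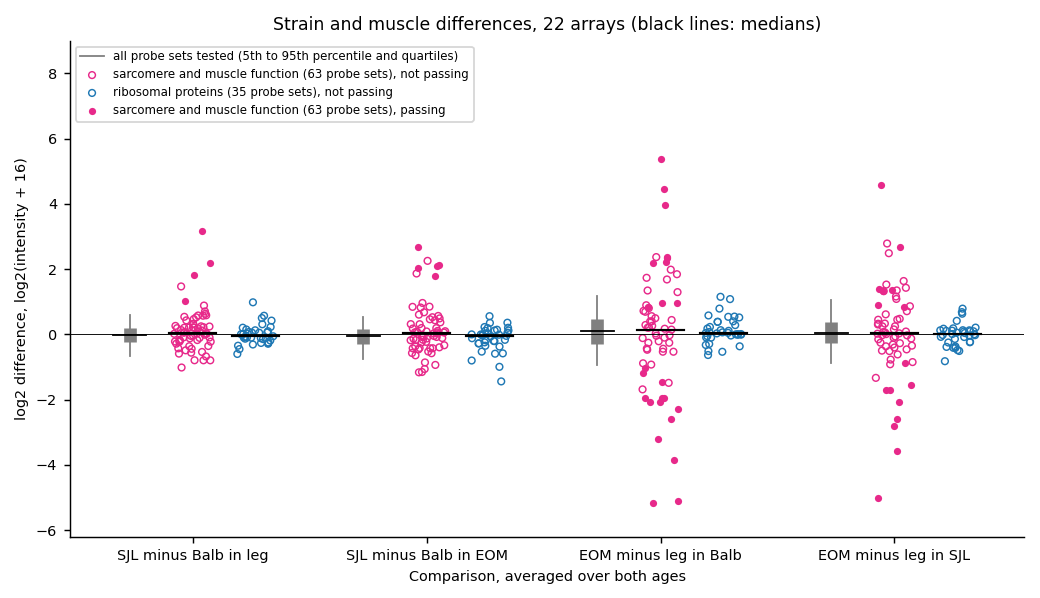
log2 differences of all probe sets tested, of 63 sarcomere and muscle function probe sets and of 35 ribosomal protein probe sets in 4 comparisons averaged over both ages, on 22 arrays. Filled points have a limma adjusted p below 0.05 and black lines are medians. None of the ribosomal protein points is filled, while 24 sarcomere points are filled for EOM against leg in Balb and 16 in SJL.

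The extreme members for muscle again had wide errors. In Balb the highest were Rpl41, the shortest ribosomal protein, at 1.15 ± 0.94 (adjusted p = 0.471), Rps4l 98148_at at 1.08 and Rps29 162335_at at 0.79. The lowest were -0.63 for Rpl22 92857_at, -0.54 for Rpl10a 100711_at and -0.51 for Rpl8. In SJL the highest were Rps29 162335_at at 0.79, Rps4l 98149_s_at at 0.68 and Rpl41 at 0.63, and the lowest Rps4x 161654_r_at at -0.82, Rps13 at -0.51 and Rpl10a 100711_at at -0.48. Rpl10a, the protein of the L1 stalk, was thus among the lowest in both strains. Rps29 162335_at was among the highest in both.

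Over the 18 arrays a few members separated the muscles. Rpl10a 100711_at was lower in EOM in both strains, at -0.39 ± 0.08 (adjusted p = 0.00165) in Balb and -0.37 ± 0.08 (adjusted p = 0.00248) in SJL. In Balb its values at 10 months were 12209, 19526 and 19137 in leg against 4938, 13217 and 16279.9 in EOM (replicate 1 first), and at 12 months 22617, 24456 and 21598 in leg against 17377 and 17944 in EOM. In SJL they were 6516, 16444 and 18538 in leg against 3045, 13001 and 13553 in EOM at 10 months, and 22489.8, 20199 and 20359 against 16786 and 16404 at 12 months. Without the replicate 1 arrays every EOM array lay below every leg array of its strain and age, which held for this 1 member and for 7.53% of all probe sets. The other Rpl10a probe set, 161327_f_at, differed by -0.04 ± 0.12 and -0.03 ± 0.12 and did not pass. Rps28, a small subunit protein, rose in Balb EOM with both probe sets of 1 record, at 0.54 ± 0.17 (adjusted p = 0.0193) and 0.57 ± 0.20 (adjusted p = 0.0379). Its other probe set, 100758_at, was at 0.02 ± 0.09 (adjusted p = 0.884), and at 12 months alone 98086_r_at was at 0.09 ± 0.24 (adjusted p = 0.797). In SJL the other called members were Rps4l 98149_s_at at 1.06 ± 0.37 (adjusted p = 0.0378) and Rps29 162335_at at 1.06 ± 0.38 (adjusted p = 0.0437). That made 3 of 35 called in Balb, where 33.4% of all tested were called, and 3 of 35 in SJL, where 30.8% were. Every EOM array lay above every leg array for Rpl6 96962_at alone, against 10% of all probe sets, at 0.17 ± 0.09 and 0.20 ± 0.09, which did not pass. Sarcomere probe sets numbered 21 higher and 23 lower of 63 in Balb, and 15 and 20 in SJL.

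At 12 months alone, where all arrays had Actb ratios of at most 1.93, 5 members were called for EOM minus leg in Balb (28.0% of all): Rpl41 at 2.53, Rps28 98085_f_at at 0.90, Rpl37a at 0.74, Rps18 at 0.65 and Rpl10a 100711_at at -0.37. In SJL 2 were called (22.4% of all), Rps28 98086_r_at at 0.73 and Rpl10a 100711_at at -0.34. At 10 months alone, with the replicate 1 arrays, 0 of 35 were called in either strain (0.932% and 0.736% of all). Between strains at 12 months, Rpl22 92857_at was called in EOM at 0.82 (3.01% of all), and 0 members in leg (5.96%). At 10 months 0 of 35 were called between strains in leg (0.0920% of all) or in EOM (0.0345%). Gland and epithelium markers summed to 25760 to 41936 on Balb EOM arrays and 2287 to 9161 on Balb leg arrays, and Schwann cell markers to 16945 to 18102 and 5100 to 8825. On SJL EOM and SJL leg arrays the gland and epithelium markers summed to 10097 to 17675 and 2950 to 10719. The Schwann cell markers summed to 19951.5 to 23657 and 5208 to 8897 there. Their part in the muscle differences of members was not tested.

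All member calls over 22 arrays came from the age comparisons. The comparison of 12 with 10 months was made in each strain and muscle, and age may coincide with a processing batch, which cannot be told apart from it here. Over 22 arrays, 10 of 35 members were called in Balb leg (1 higher, 9 lower; 19.1% of all tested were called), 9 in SJL leg (1 higher, 8 lower; 25.3%), 2 in Balb EOM (both lower; 7.80%) and 8 in SJL EOM (1 higher, 7 lower; 14.9%). Calls in the lower direction were 15.9%, 19.3%, 6.57% and 12.3% of all tested in the same order, and calls in the higher direction 3.21%, 5.96%, 1.23% and 2.65%. The member medians were -0.44, -0.27, 0.02 and -0.04, beside -0.08, -0.10, -0.06 and -0.13 for all tested. Scaling each array to the same median moved the medians of all tested to 0.31, 0.36, 0.15 and 0.23 and those of members to -0.05, 0.19, 0.23 and 0.32, so the direction of the set as a whole depends on the scaling. Relative to all probe sets the member medians were -0.36, -0.17, 0.08 and 0.09 under both scalings. That equality was fixed in advance, because median centring shifts every probe set of an array alike. After quantile normalization they were -0.44, -0.09, 0.01 and 0.08. Over the 18 arrays they were -0.41, -0.44, -0.25 and -0.29, with the opposite sign in both EOM pairs.

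Over 22 arrays the calls came mostly from dim probe sets. Dim members had medians of -1.33 in Balb leg, -1.29 in SJL leg, -0.77 in Balb EOM and -1.23 in SJL EOM. Of the 16 dim members tested, 9, 7, 2 and 8 were called, against 19.1%, 25.3%, 7.80% and 14.9% of all tested. No list of other dim probe sets was compared, so these values cannot show a change particular to the members. Bright members had medians of -0.31, 0.04, 0.25 and 0.20, with 1, 2, 0 and 0 called, beside 0.11, 0.19, 0.20 and 0.15 for other probe sets brighter than 7000. Over the 18 arrays without the 10-month replicate 1 arrays the bright medians were -0.35, -0.17, -0.18 and -0.25, so the last 3 had the opposite sign. The median intensity of the dim members tested ran from 602 to 900 at 10 months and from 249 to 486 at 12 months.

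**Figure D3:**
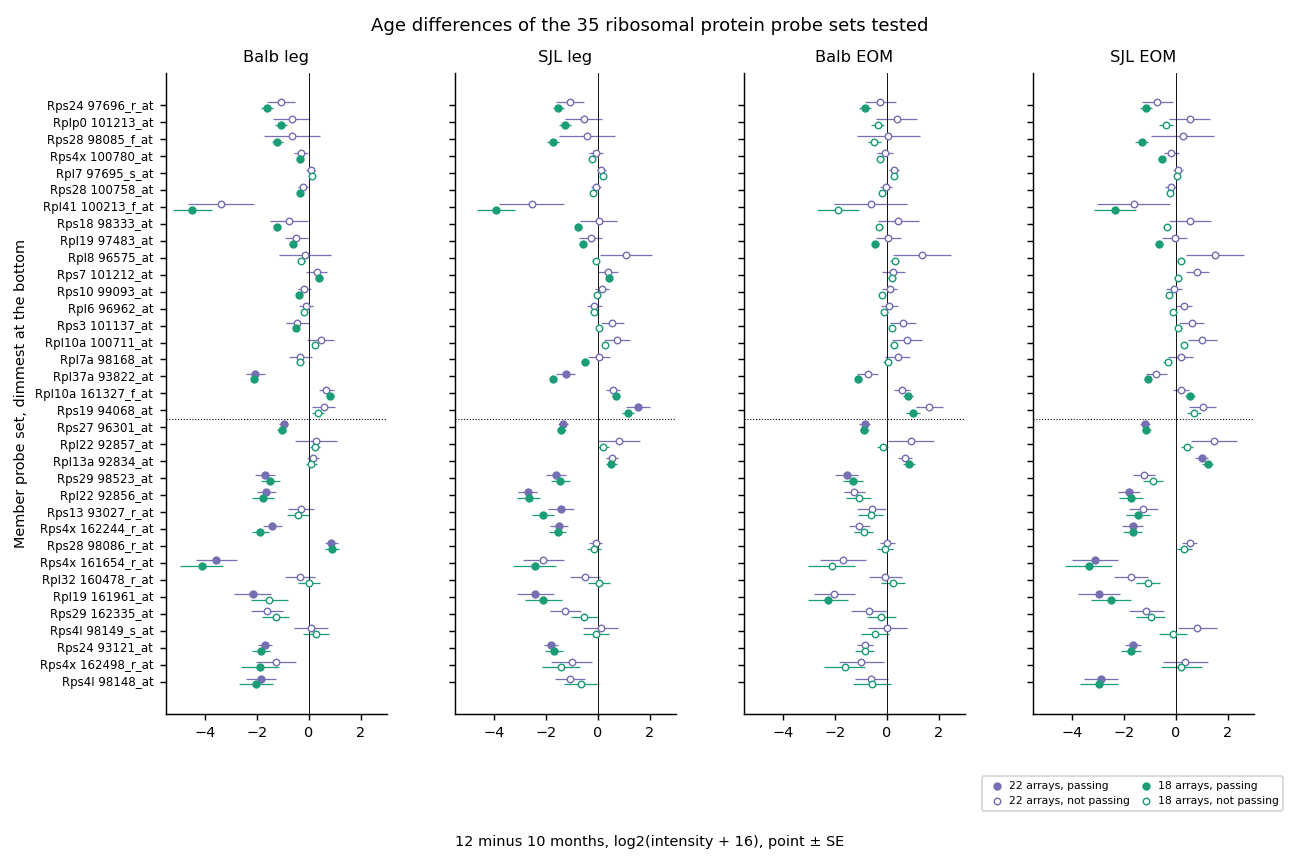
log2 differences, 12 minus 10 months, of the 35 ribosomal protein probe sets tested, with SE, in the 4 strain and muscle pairs, over 22 arrays and over the 18 arrays without replicate 1 at 10 months. Rows run by brightness with the dotted line between bright and dim members, and dim members lie further to the left, with medians of -1.33, -1.29, -0.77 and -1.23 over 22 arrays.

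Among small subunit members, Rps27, a zinc-binding protein with roles outside the ribosome, fell in all 4 pairs. It read 3088, 3454 and 3877 in Balb leg at 10 months, then 1787, 1708 and 1810.1 at 12 months, and in SJL leg 3021, 3740.1 and 3161, then 1551, 1113 and 1266. In Balb EOM it read 3444, 3533 and 3421, then 2209.7 and 1660.2, and in SJL EOM 3471, 3155 and 3021, then 1528 and 1296. All 12-month arrays lay below all 10-month arrays of their strain and muscle, replicate 1 arrays included. The log2 differences were -0.96 ± 0.18 (adjusted p = 0.00121) in Balb leg, -1.33 ± 0.18 (adjusted p = 5.55e-05) in SJL leg, -0.85 ± 0.20 (adjusted p = 0.0149) in Balb EOM and -1.18 ± 0.20 (adjusted p = 0.00091) in SJL EOM. The Balb EOM call was lost without replicate 2 at 12 months (-0.65, adjusted p = 0.263), with median centring (-0.64, adjusted p = 0.0623) and with only the groups compared in the fit (-0.85, adjusted p = 0.206). The last setting also ended the SJL EOM call (-1.18, adjusted p = 0.0817).

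Rps24 93121_at fell in 3 of the 4 pairs, at -1.67 in Balb leg, -1.80 in SJL leg and -1.66 in SJL EOM, with -0.85 ± 0.31 (adjusted p = 0.107) in Balb EOM. Rps29 98523_at, a small zinc-binding protein, fell in Balb leg (-1.69), SJL leg (-1.61) and Balb EOM (-1.54), and was at -1.21 ± 0.43 (adjusted p = 0.0674) in SJL EOM. Rps4x 162244_r_at fell in both legs and in SJL EOM (-1.40, -1.50 and -1.65) and was at -1.05 ± 0.40 (adjusted p = 0.123) in Balb EOM. These 3 probe sets, with Rps27 and the large subunit probe sets Rpl19 161961_at and Rpl22 92856_at, were the 6 members of 35 whose 12-month arrays all lay below their 10-month arrays in every pair, against 12.3% of all tested. Rps4x 161654_r_at fell in Balb leg (-3.56) and SJL EOM (-3.10), and Rps4l 98148_at fell in the same pairs (-1.83 and -2.87). Rps4x 161654_r_at went from 500, 1634 and 1697.5 to 140, 119 and 26.2 in Balb leg. In SJL EOM it went from 442, 412 and 1314 to 32.5 and 97.9. Rps4l 98148_at went from 248, 314 and 477 to 43.3, 54.2 and 215 in Balb leg. In SJL EOM it went from 333, 316 and 500 to 26.9 and 50.3. These 12-month readings lay below 222, the mean of Rps14, which was left out as too dim. Rps13 fell in SJL leg at -1.43 ± 0.50 (adjusted p = 0.0451) and at -2.12 ± 0.43 (adjusted p = 0.000911) over the 18 arrays, but 18 of its 36 alternative settings ended the call, with -0.73 (adjusted p = 0.234) when replicate 3 of SJL leg at 10 months was left out.

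Of the dim large subunit members, Rpl19 161961_at fell in Balb leg (-2.16), SJL leg (-2.40) and SJL EOM (-2.96), with -2.02 ± 0.80 (adjusted p = 0.141) in Balb EOM. The Balb leg call missed the threshold under 14 of its alternatives, and was at -1.53 ± 0.71 (adjusted p = 0.0954) over the 18 arrays, and replicate 1 was its highest 10-month array there (1114, 373 and 217). Rpl22 92856_at fell in the same 3 pairs (-1.64, -2.70 and -1.81), and its values went from 1408, 1574 and 1069 to 131, 199.9 and 266 in SJL leg. The brighter probe sets of these genes gave other values. Rpl19 97483_at was at -0.47 ± 0.44, -0.27 ± 0.44, 0.07 ± 0.49 and -0.04 ± 0.49, and Rpl22 92857_at at 0.29 ± 0.80, 0.81 ± 0.80, 0.94 ± 0.89 and 1.47 ± 0.89, in the order Balb leg, SJL leg, Balb EOM and SJL EOM, and none of these 8 values passed. The gap between the 2 probe sets of a gene was 1.69 to 2.92 for Rpl19 and 1.92 to 3.52 for Rpl22. It reached 3.47 among the probe sets of Rps4x, 3.71 among those of Rps4l and 1.53 among those of Rps28 in Balb leg. Whether the probe sets of a gene measure the same transcripts was not tested.

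Of the 29 member calls, all of them for age, 10 passed under every alternative run: those of Rps27, Rps24 93121_at, Rps29 98523_at and Rpl22 92856_at in both legs, and those of Rpl37a and Rps4x 161654_r_at in Balb leg. The other 19 missed the threshold under at least 1 alternative, and none changed direction. Alternatives that left a probe set out were not counted for it. Leaving out members above 20000 or members with a suffix kept the main fit. A call of a remaining probe set was therefore certain to pass there. The number counted was thus 34 for Rps4x 161654_r_at, 35 for Rps24 93121_at, 36 for Rpl22 92856_at and 37 for Rps27.

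Of the bright members, Rpl37a, a zinc-binding protein of the large subunit, fell in leg. It read 23939, 24885 and 25458 in Balb leg at 10 months, then 5919, 5812 and 5968 at 12 months, and in SJL leg 8588, 24027 and 24152, then 6054, 8108 and 7907. In Balb EOM it read 9989, 22242 and 19684, then 10749 and 9014, and in SJL EOM 10409, 21033 and 19810.2, then 9445 and 9948. In every pair the 12-month arrays lay below replicates 2 and 3 at 10 months. Replicate 1 lay beside those replicates in Balb leg and near the 12-month values in the other 3 groups. The log2 differences over 22 arrays were -2.07 ± 0.37 (adjusted p = 0.000926) in Balb leg, -1.23 ± 0.37 (adjusted p = 0.0196) in SJL leg, -0.73 ± 0.41 (adjusted p = 0.314) in Balb EOM and -0.75 ± 0.41 (adjusted p = 0.234) in SJL EOM. The SJL leg call was lost without replicate 1 at 12 months (-1.09, adjusted p = 0.0794), or without replicate 2 or 3 at 10 months (-0.98 each, adjusted p = 0.0949 and 0.0832). Over the 18 arrays Rpl37a fell in all 4, at -2.09 ± 0.12 (adjusted p = 9.61e-08), -1.72 ± 0.12 (adjusted p = 2.28e-07), -1.09 ± 0.14 (adjusted p = 0.000122) and -1.07 ± 0.14 (adjusted p = 6.95e-05).

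Rplp0 and Rpl41 showed how much the replicate 1 arrays weigh. Rplp0 read 23908, 59788 and 49537 in Balb leg at 10 months, then 21111, 26572 and 32073 at 12 months, and in SJL leg 14499.9, 62877 and 60811, then 16751, 32411 and 32874. In Balb EOM it read 10103, 44333 and 47610.1, then 36040.1 and 36481, and in SJL EOM 7173, 47339 and 48424, then 36033 and 37934. The first value of each 10-month group is the replicate 1 array and lies below the 2 others by a wide margin. Over 22 arrays Rplp0 differed by -0.66 ± 0.72 (adjusted p = 0.587) in Balb leg and -0.55 ± 0.72 (adjusted p = 0.615) in SJL leg, and over 18 arrays it fell in both, at -1.05 ± 0.23 (adjusted p = 0.00198) and -1.24 ± 0.23 (adjusted p = 0.000462). After quantile normalization of the 18 arrays those values were -0.31 ± 0.29 (adjusted p = 0.408) and -0.38 ± 0.29 (adjusted p = 0.289), which did not pass.

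Rpl41 spanned 944 to 79416 over all arrays, the widest range of the bright members. Its values were 5582, 58669.9 and 52495 in Balb leg at 10 months, then 944, 5268 and 3026 at 12 months, and in SJL leg 4321, 79416 and 68919, then 1343, 7406 and 11809. In Balb EOM they were 3814, 52423 and 52819, then 22284 and 9292, and in SJL EOM 11979, 52315 and 53368, then 6548 and 16866. Replicates 2 and 3 at 10 months lay above every 12-month array, and replicate 1 lay far below them, in the range of the 12-month arrays or near it. The differences over 22 arrays, -3.38 ± 1.26 (adjusted p = 0.0698) in Balb leg and -2.55 ± 1.26 (adjusted p = 0.151) in SJL leg, did not pass, and over 18 arrays they were -4.48 ± 0.74 (adjusted p = 0.000256) and -3.91 ± 0.74 (adjusted p = 0.000549). Rpl7 97695_s_at was steady by contrast, at 25908 to 35743 (median 32035) over all 22 arrays.

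**Figure D4:**
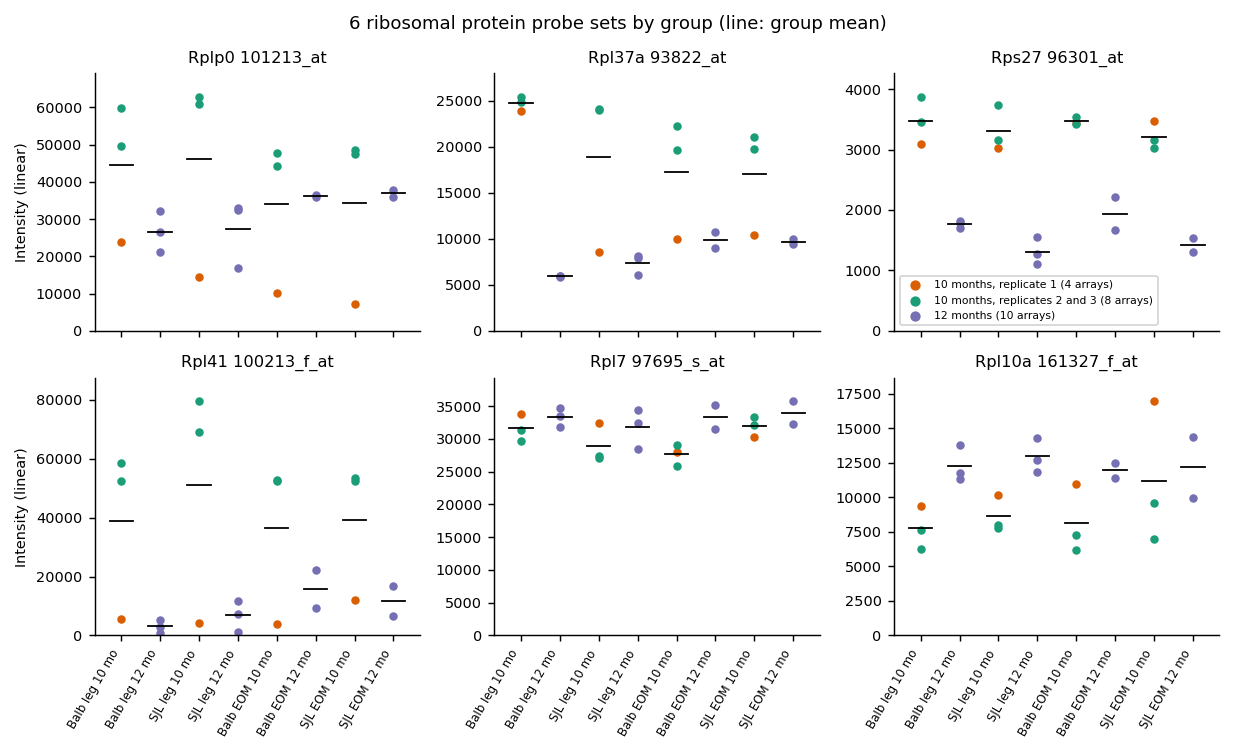
Intensity (linear axis from 0) of 6 ribosomal protein probe sets in the 8 groups, with a point per array, a line at each group mean and colors for age and for the 10-month replicate 1 arrays. Rpl37a and Rps27 are lower at 12 months, Rplp0 and Rpl41 have low 10-month replicate 1 points, Rpl7 stays within 25908 to 35743, and Rpl10a 161327_f_at is higher at 12 months when replicate 1 is set aside.

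Without the 4 replicate 1 arrays, more members were called, as were more probe sets in general. In Balb leg 22 of 35 were called (3 higher, 19 lower; 42.3% of all), in SJL leg 20 (4 and 16; 48.9%), in Balb EOM 9 (3 and 6; 21.9%) and in SJL EOM 16 (2 and 14; 29.1%). Of the 19 bright members, 11 were called lower and 2 higher in Balb leg, 8 and 3 in SJL leg, 3 and 2 in Balb EOM and 6 and 1 in SJL EOM. Every 12-month array lay below replicates 2 and 3 at 10 months in all 4 pairs for 15 of 35 members, against 17.5% of all. The medians of the members were -0.49, -0.52, -0.28 and -0.37, beside -0.08, -0.08, -0.03 and -0.08 for all tested. Rps24 97696_r_at was at -1.61 ± 0.22, -1.52 ± 0.22, -0.84 ± 0.24 and -1.15 ± 0.24, in the order Balb leg, SJL leg, Balb EOM and SJL EOM. Rps18, at the head of the small subunit, was at -1.21 ± 0.13 and -0.75 ± 0.13 in leg, and Rps28 98085_f_at at -1.21 ± 0.22 and -1.73 ± 0.22. With quantile normalization as well, the medians were -0.31, 0.04, -0.03 and -0.12, beside 0.09, 0.12, 0.06 and 0.07 for all, and 18, 20, 7 and 10 members were called (38.7%, 45.3%, 22.9% and 26.0% of all). Under that scaling Rpl7 97695_s_at was called higher in every pair, at 0.90, 0.92, 0.49 and 0.46, against 0.13, 0.22, 0.28 and 0.05 without it. In Balb leg Rps4x 100780_at went from -0.33 to 0.39.

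A few members were higher at 12 months. Over 22 arrays Rps19, a small subunit protein mutated in Diamond-Blackfan anaemia, rose in SJL leg at 1.56 ± 0.46 (adjusted p = 0.0182). Rps28 98086_r_at rose in Balb leg at 0.87 ± 0.26 (adjusted p = 0.024), and Rpl13a, also known for a role in interferon-driven silencing of translation, in SJL EOM at 1.00 ± 0.26 (adjusted p = 0.0143). Rps19 in SJL leg read 2565, 6102 and 5368 at 10 months and 10499, 14139.7 and 14516 at 12 months. Rpl13a in SJL EOM read 1152, 787 and 649.6 and then 1713 and 1684, and the ages did not overlap in either case. Leaving out single arrays ended these calls: Rps19 without replicate 2 or 3 at 12 months or replicate 1 at 10 months (1.49, 1.47 and 1.17, adjusted p = 0.0575 to 0.0829), and Rpl13a without either 12-month array or replicate 3 at 10 months (0.99, 1.02 and 0.82, adjusted p = 0.0526 to 0.112). The Rps28 call ended without Balb leg replicate 1 or 2 at 12 months or replicate 3 at 10 months (0.75, 0.90 and 0.73, adjusted p = 0.0589 to 0.103). Rpl10a 100711_at was the 1 member whose 12-month arrays all lay above its 10-month arrays in every pair, against 5.8% of all, although its 4 differences over 22 arrays (0.46, 0.74, 0.79 and 1.03) did not pass. Its second probe set, 161327_f_at, rose over the 18 arrays at 0.82 ± 0.17 (adjusted p = 0.00124) in Balb leg, 0.71 ± 0.17 (adjusted p = 0.00274) in SJL leg, 0.83 ± 0.18 (adjusted p = 0.0053) in Balb EOM and 0.55 ± 0.18 (adjusted p = 0.0334) in SJL EOM. Without replicate 1 both Rpl10a probe sets separated the ages in this direction, 2 of 35 members against 12.5% of all.

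On the replicate 1 arrays at 10 months, bright ribosomal protein probe sets read lower than on replicates 2 and 3 of the same group. The median difference over the 19 was -0.44 in Balb leg, -1.32 in SJL leg, -1.26 in Balb EOM and -1.51 in SJL EOM, with 16, 16, 17 and 18 of 19 below 0. Sarcomere probe sets had medians of -0.88, -1.47, -1.13 and -1.34, other probe sets brighter than 7000 of -0.09, -0.20, -0.41 and -0.49, and all tested of 0.02, 0.11, 0.14 and 0.04. Dim members were at -0.23, -0.08, 0.00 and -0.09. The drop was uneven among the bright members. Averaged over the 4 groups it was -3.33 for Rpl41, -3.02 for Rps28 98085_f_at, -2.77 for Rpl8, -2.14 for Rps18 and -2.05 for Rplp0, while Rpl7 97695_s_at stood at 0.08, Rps28 100758_at at -0.29 and Rpl10a 161327_f_at at 0.64. Rps28 was thus read as both among the most and among the least affected by different probe sets. The bright members summed to 232031 to 384668 on the replicate 1 arrays, 567203 to 653552 on the other arrays of that age and 347844 to 505781 at 12 months. As a share of the total intensity of an array these sums were 0.95% to 1.63%, 2.16% to 2.38% and 1.5% to 2.0%.

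**Figure D5:**
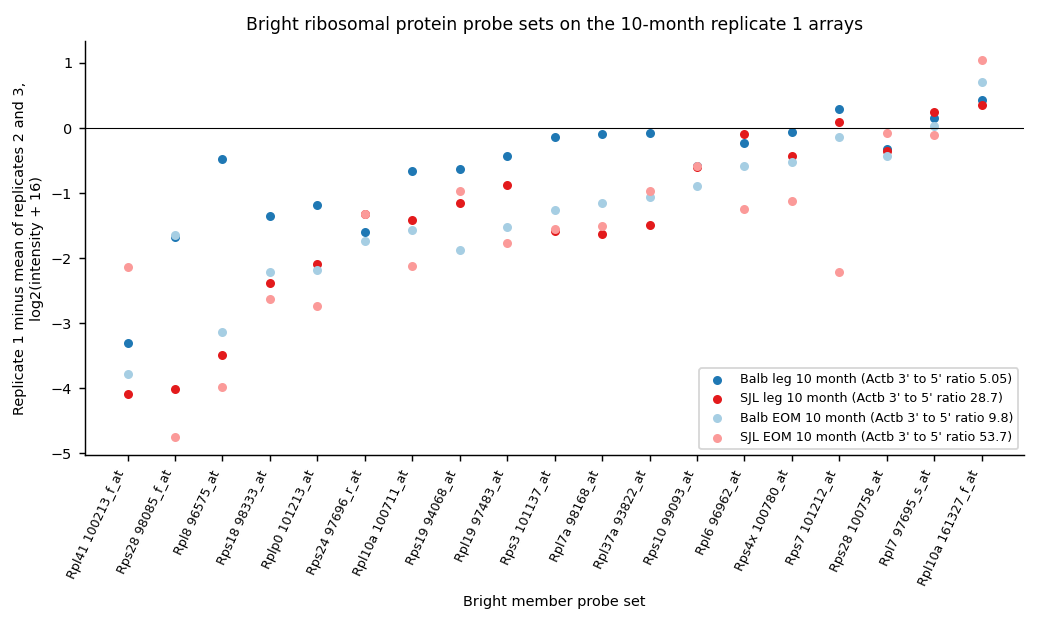
Difference between replicate 1 and the mean of replicates 2 and 3 at 10 months, on the log2(intensity + 16) scale, for the 19 bright ribosomal protein probe sets in 4 groups, with the Actb 3′ to 5′ ratio of the replicate 1 array in the legend. Rpl41 lies lowest on average at -3.33, and Rpl7 97695_s_at lies at 0.08.

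The age change itself was compared between muscles and between strains, a comparison chosen after the data had been seen. Over 22 arrays 0 of 35 members differed between the muscles in their age change (0.0115% of all called, 1 member at an unadjusted p below 0.05), and over 18 arrays 2 did (5.20% of all). Rpl37a fell less in EOM than in leg, by 0.83 ± 0.13 (adjusted p = 0.00243), as did Rps18, by 0.68 ± 0.14 (adjusted p = 0.013). Over all 22 arrays the estimates were 0.91 and 0.86 with adjusted p of 0.886 and 1.00. Rps18 read 17828, 48828 and 42548 in Balb leg at 10 months, then 17991, 20448 and 20567 at 12 months, and in Balb EOM 8105, 38102 and 36929, then 34216 and 27798. In SJL leg it read 6768, 32977 and 37508, then 18315, 22689 and 21939, and in SJL EOM 4954, 31271 and 30309, then 22446 and 26940.0. The 12-month values lay below replicates 2 and 3 at 10 months in all 4, with a wider gap in leg. Sarcomere probe sets had 25 of 63 called with the same sign and 1 with the other over the 18 arrays. Between strains, 0 of 35 members differed in their age change over 22 arrays (0% of all) and 0 over 18 (0.345%), with 0 and 2 at an unadjusted p below 0.05.

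The other lists of protein synthesis genes were counted in the same way, with 4.86% of all probe sets tested lower in Balb EOM than in leg and 3.42% in SJL. Mitochondrial ribosomal proteins, which serve the separate ribosome of the mitochondrion, had 4 of 68 probe sets lower and 0 higher in Balb EOM than in leg and 2 lower in SJL, with medians of -0.23 and -0.16. Translation factors had 7 of 53 lower in Balb EOM and 6 in SJL, with medians of -0.30 and -0.22, and ribosome biogenesis genes 1 of 32 lower in each. The shares of mitochondrial ribosomal proteins and of biogenesis genes were near those of all probe sets, and no list was tested against another. Mrps12, of the mitochondrial small subunit, was higher in SJL by 0.88 ± 0.19 in leg (limma adjusted p = 0.0189). Fau and Rpsa encode ribosomal proteins that the symbol rule did not take. Fau fell with age in Balb leg at -1.39 ± 0.37 (limma adjusted p = 0.0124) and SJL leg at -2.11 ± 0.37 (adjusted p = 0.000448), and was at 0.15 ± 0.41 and -0.06 ± 0.41 in Balb and SJL EOM. Rpsa did not pass in any comparison of strain, muscle or age.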

How the data were processed

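RNA from leg muscle and EOM of both strains was measured on 22 Affymetrix arrays, grouped by the sample titles. The deposited values are linear intensities, 1 per probe set and array. Per the labels a standard protocol of the array maker was followed. How background was corrected and probes were summarized, and with which software, is not given in the sources used here. The trimmed means agree between arrays, so a scaling had been applied. Gene names came from the platform annotation, with 10833 probe sets of 1 symbol, 396 of several and 1193 of none, and all 32 member gene IDs were found in the RefSeq gene table of GRCm38.p6. Promoter sequences came from RefSeq.

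The 66 control probe sets were set aside. Values were taken as log2(intensity + 16), so fold changes of dim probe sets are understated. The dimmest 30% of probe sets, by their mean, were dropped. The other 8695 were tested in limma 3.58.1 (R 4.3.3) with 8 group means, a variance trend, 14 residual and 3.63 prior degrees of freedom. Tests were 2-sided, p-values were adjusted by Benjamini-Hochberg within each comparison over all probe sets tested, and the threshold was 0.05. Differences of strain or muscle are means of the 2 ages. The code was tested on simulated data. Figures were drawn in Python 3.11.15. The number of arrays limits the precision.

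The members, the other gene lists and the alternatives were chosen with earlier results of these data known. Members named with values were those past the threshold in any comparison, the 3 highest and 3 lowest differences in each, the 5 brightest and 5 dimmest, the paralogs, genes whose probe sets differed by over 1, and the most and least even. Rplp0, Rpl41, Rpl7 97695_s_at, Rpl6 and Rps18 were given in full after their values had been seen. Other genes were named where a result turned on them. Alternatives covered the pseudocount, the filter, normalization, the variance trend, array weights, the samples in the fit, a replicate block, the arrays and the choice of member probe sets.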

Additional observations from a re-analysis of the deposited data

Results flagged for a closer look

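For 2 members the age change differed between the muscles, by a test of the difference itself over the 18 arrays without replicate 1 at 10 months. These 2 of 35 members are near the share of all probe sets tested, 5.20%, so the count is not particular to the members. Of 63 sarcomere probe sets, 25 were called with the same sign and 1 with the other. Rpl37a 93822_at fell less in EOM than in leg by 0.83 ± 0.13 (limma adjusted p = 0.00243, both strains together), and Rps18 98333_at by 0.68 ± 0.14 (adjusted p = 0.0130). After quantile normalization of those arrays the values were 0.80 and 0.58 (adjusted p = 0.00443 and 0.00777). Over all 22 arrays they were 0.91 and 0.86 and neither passed (adjusted p = 0.886 and 1.00). The quantile-normalized fit of the 18 arrays called 4.86% of all tested. It called 1 further member and 3 sarcomere probe sets with the other sign, and 16 sarcomere probe sets with the same sign. Groups of 2 or 3 arrays were too small to be screened for single outlying arrays.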

How the results depend on the processing

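The main counts of members called were 0 in each strain and muscle comparison and 10, 9, 2 and 8 for age in Balb leg, SJL leg, Balb EOM and SJL EOM. The shares of all probe sets called for age were 19.1%, 25.3%, 7.80% and 14.9% in that order. For EOM minus leg they were 13.6% in Balb and 9.56% in SJL, and for strain 1.41% in leg and 0.932% in EOM. Other pseudocounts, a fit without a variance trend and leaving out the 15 members with a suffix letter kept every count within 1.5 times its main value. Of those 15, 3 had the suffix f, 2 s, 9 r and 1 i. Without a filter 1 member was called for EOM minus leg in Balb, 14 for age in SJL leg and 4 in Balb EOM, and the SJL EOM age median was -0.73. With the dimmest 50% left out, 6 were called for age in Balb leg and 4 in SJL EOM. Quantile normalization gave 5 for age in SJL leg and 1 in Balb EOM, and median centring 1 in Balb EOM. Array weights gave 1 and 2 for EOM minus leg in Balb and SJL, and 18, 15, 8 and 14 for age. With only the groups compared in the fit, limma called 0 for age in Balb EOM and 0 in SJL EOM (7 and 9 at an unadjusted p below 0.05). The 18 arrays gave 3 and 3 for EOM minus leg, where 33.4% and 30.8% of all were called. For age they gave 22, 20, 9 and 16, against 42.3%, 48.9%, 21.9% and 29.1% of all. With quantile normalization as well they gave 1 for strain in EOM, 5 and 2 for EOM minus leg, and 18, 20 and 7 for age in Balb leg, SJL leg and Balb EOM. The shares of all in that order were 8.58%, then 33.1% and 31.2%, then 38.7%, 45.3% and 22.9%. The 12-month arrays alone gave 1 for strain in EOM (3.01% of all) and 5 and 2 for EOM minus leg (28.0% and 22.4%). The brightest probe set of each gene gave 3 for age in Balb leg, 5 in SJL leg and 2 in SJL EOM. With members above 20000 left out, the age medians were -1.06 in SJL leg, -0.59 in Balb EOM and -1.14 in SJL EOM. Split at 7000 after the data were seen, bright members had 1, 2, 0 and 0 calls for age (in EOM 1 and 0 at an unadjusted p below 0.05), and dim members medians of -1.33, -1.29, -0.77 and -1.23. The causes of these shifts were not tested, apart from the smaller number of probe sets where members were left out. For the other settings, and for the single arrays left out and the replicate block below, the share over all probe sets is not printed. Those counts therefore cannot show a change particular to the members.

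Leaving out each array in turn, the age counts ran from 7 to 12 in Balb leg, 6 to 9 in SJL leg, 0 to 3 in Balb EOM and 2 to 10 in SJL EOM, and the age medians from -0.49 to -0.38, -0.52 to -0.06, -0.28 to 0.17 and -0.37 to 0.05. For age in Balb EOM, 1 member was called without replicate 1 at 10 months, 1 without replicate 1 at 12 months and 0 without replicate 2 at 12 months (4 at an unadjusted p below 0.05). In SJL EOM, 2 were called without replicate 1 and 4 without replicate 3 at 12 months. The EOM minus leg count ran from 0 to 1 in Balb (1 without Balb leg replicate 3 at 12 months) and was 0 throughout in SJL, with medians of 0.00 to 0.14 and -0.13 to 0.14. Strain counts were 0 throughout, with medians of -0.12 to 0.08 in leg, -0.21 to 0.14 in EOM and -0.11 to 0.21 for their difference.

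Replicate numbers were checked for pairing. Same-numbered arrays correlated in their deviations at 0.293 to 0.69 between muscles and 0.341 to 0.759 between strains at 10 months, but at -0.015 to 0.014 and -0.081 to -0.009 at 12 months, and no label names a shared source, so over both ages the numbers were not taken as pairs. At 10 months 16 of 24 arrays and comparisons had their own number as the best match. Replicate 1 had the highest same-number values, at 0.581 to 0.69 between muscles and 0.666 to 0.759 between strains. Replicates 2 and 3 correlated with each other at up to 0.447 and 0.492, within the range of their same-number values. The count therefore cannot show pairing for replicates 2 and 3. With a replicate block, 3 members were called for EOM minus leg in Balb and 4 for age in Balb EOM.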
